A study of Mus musculus with 7 samples.

Results

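The 10 genes described here are members of the BCL2 family, which decides whether a cell keeps or loses the integrity of its mitochondria. They were found by their symbols in both deposited tables, 10 of 48440 genes in the LPS table and 10 of 55352 genes in the AAV table. All samples were wild-type C57BL/6 mouse bone-marrow-derived macrophages (BMDMs) grown in M-CSF at 20 ng per mL. In the LPS experiment, BMDMs were left untreated (0 h) or were stimulated with lipopolysaccharide (LPS), a bacterial cell wall component, at 100 ng per mL during 2 h or 4 h, and each time point was sequenced as 1 library. In the AAV experiment, an adeno-associated virus was used for 48 h to bring GFP (AAV-GFP) or Shisa3 (AAV-Shisa3) into BMDMs under the broadly active CAG promoter; there were 2 samples per group and no untransduced group. Shisa3 encodes a transmembrane protein, and the study asked what its overexpression does to macrophages. Nothing in the labels says that the 2 samples of a group came from separate cultures or mice, so p-values measure only the spread between these samples, which may be technical.

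Survival members of the family (Bcl2, Bcl2l1, Mcl1 and the Bcl2a1 genes) bind and restrain the pore-forming effectors, of which Bax is a member here. The BH3-only members Bcl2l11 (BIM), Pmaip1 (NOXA) and Bbc3 (PUMA) bind the survival proteins and release or activate the effectors. Once effectors open the outer mitochondrial membrane, cytochrome c reaches APAF1 and the caspases are activated. In macrophages, NF-κB is known to drive Bcl2a1 and Bcl2l1 after stimulation of Toll-like receptors, MCL1 is a short-lived protein that myeloid cells depend on, and Pmaip1 and Bbc3 are classic targets of p53. The mouse carries several near-identical copies of Bcl2a1 where humans have a lone BCL2A1 gene.

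Among the members, Bcl2a1a, Bcl2a1b and Bcl2a1d are such copies, and their upstream sequences are shown because these genes differed most between time points. In RefSeq windows on GRCm38.p6, the bases before the GENCODE M21 first exon covered chr9:88956670-88956899 on the plus strand for Bcl2a1a, chr9:89199023-89199208 on the plus strand for Bcl2a1b and chr9:88731915-88732100 on the minus strand for Bcl2a1d. Each is written 5′ to 3′ on the strand of its gene, and capitals mark GAGGAA, a core motif of ETS factors such as the myeloid factor PU.1, or its reverse complement.
Bcl2a1a: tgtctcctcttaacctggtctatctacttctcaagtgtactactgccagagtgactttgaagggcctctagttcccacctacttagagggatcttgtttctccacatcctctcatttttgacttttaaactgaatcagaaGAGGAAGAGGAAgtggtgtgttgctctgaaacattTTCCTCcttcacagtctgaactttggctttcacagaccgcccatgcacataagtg
Bcl2a1b: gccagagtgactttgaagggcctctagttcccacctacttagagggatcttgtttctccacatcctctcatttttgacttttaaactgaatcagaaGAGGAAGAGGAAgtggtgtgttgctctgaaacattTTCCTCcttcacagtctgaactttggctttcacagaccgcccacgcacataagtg
Bcl2a1d: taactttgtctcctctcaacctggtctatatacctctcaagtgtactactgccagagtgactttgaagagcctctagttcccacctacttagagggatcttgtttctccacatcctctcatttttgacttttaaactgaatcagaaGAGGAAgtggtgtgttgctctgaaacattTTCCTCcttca
The motif was matched 3 times upstream of Bcl2a1a, 3 times upstream of Bcl2a1b and 2 times upstream of Bcl2a1d, where a tandem copy is missing. Where the stretches aligned, Bcl2a1a and Bcl2a1b were identical at 185 of 186 bases, Bcl2a1a and Bcl2a1d at 176 of 180 and Bcl2a1b and Bcl2a1d at 135 of 136. In the longer RefSeq windows, 250 bases before to 50 after a start, Bcl2a1a, Bcl2a1b and Bcl2a1d held 3, 4 and 2 matches, and GAGGAA on either strand was present in 28.3% of all 32851 such windows.

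Upstream of Mcl1, in chr3:95658471-95658720 on the plus strand (GRCm38.p6), capitals mark the reverse complement of a narrow form of the NF-κB motif, which is GGG, any 2 bases and TTTCC.
Mcl1: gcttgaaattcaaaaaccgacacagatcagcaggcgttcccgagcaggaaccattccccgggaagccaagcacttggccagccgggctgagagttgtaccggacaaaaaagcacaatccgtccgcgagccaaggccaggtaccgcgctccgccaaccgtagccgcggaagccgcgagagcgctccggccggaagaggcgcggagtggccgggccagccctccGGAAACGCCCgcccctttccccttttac
Both strands of 14 such windows were searched for 9 members, some of which have several starts. The narrow NF-κB form was found in 3 of the 14 windows (of Bcl2l1, Mcl1 and Bbc3), against 1.63% of all windows. The wide form (GGG, any 5 bases and CC), which takes in every match of the narrow form, was found in 10 of the 14, against 50.8% of windows. The AP-1 motif TGAGTCA was found in 0 of the 14, against 5.20% of windows. GAGGAA was found in 4 of the 14 (of Bcl2 and the 3 Bcl2a1 genes), a share close to the 28.3% of all windows. The windows of the 3 Bcl2a1 genes held no match to the narrow NF-κB form. These are matches of letters in short windows, and binding was not measured.

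The other members lie apart in the genome (GENCODE M21, GRCm38). Bcl2 (chr1:106538178-106714274, minus strand) and Bcl2l1 (chr2:152780668-152831728, minus strand) encode the survival proteins BCL-2 and BCL-XL, and Mcl1 lies at chr3:95658788-95663176 on the plus strand. Bax (chr7:45461697-45466898, minus strand) and Bbc3 (chr7:16308393-16318205, plus strand) share a chromosome, and Bcl2l11 lies at chr2:128126038-128162547 on the plus strand. The Bcl2a1 genes span chr9:88956900-88962419, chr9:89199209-89207827 and chr9:88723285-88731914 for copies a, b and d.

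The LPS table held gene counts rescaled library by library, from which the reads themselves were recovered; libraries ranged from 7263258 reads (2 h) to 32659392 reads (4 h). The AAV table gave TPM, abundances scaled by transcript length to a common total, so its read depth is unknown. Macrophage markers were high throughout, with Lyz2 at 26378 to 29528 TPM and Adgre1 at 2538 to 2920 TPM in the AAV samples. Markers of lymphocytes summed to at most 0.62 TPM and 0.192 CPM (reads scaled to a common library total), and Cd3e was listed at 0 in every library. For Shisa3, AAV-GFP samples held 7.88 and 10.85 TPM and AAV-Shisa3 samples held 12.31 and 17.81 TPM, a log2 difference of 0.63 ± 0.22 (SE) that did not pass the test (limma, adjusted p = 0.138). It ran from 0.38 without AAV-Shisa3 replicate 2 to 0.87 without AAV-Shisa3 replicate 1. In the LPS libraries it had 1, 164 and 3174 reads at 0, 2 and 4 h. These are bulk samples, in which fewer cells of a type and less RNA per cell cannot be told apart.

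The survival genes of the Bcl2a1 group were far more abundant after LPS. Bcl2a1b, the most abundant copy, was counted in 286, 3093 and 15118 reads at 0, 2 and 4 h, which are 184, 6754 and 8215 on the authors' scale. Its level was 36.7-fold higher at 2 h (95% exact counting interval 32.5 to 41.6) and 44.7-fold higher at 4 h (39.7 to 50.4) than at 0 h. Most of the difference was therefore already there at 2 h, and the 4 h level was 1.22 times the 2 h level (1.17 to 1.26). Bcl2a1d had 34, 1177 and 7474 reads, or 21.9, 2570 and 4061 on the authors' scale. It was 118-fold higher at 2 h (83.6 to 171) and 186-fold higher at 4 h (133 to 268). Bcl2a1a was barely counted in untreated cells, with 5, 249 and 1839 reads, or 3.22, 544 and 999 on the authors' scale. With so few reads at 0 h, its 169-fold and 311-fold ratios have wide intervals of 71.5 to 525 and 133 to 958. Each interval covers counting error only, and with 1 library per time point there is no replicate check and no test.

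**Figure D1:**
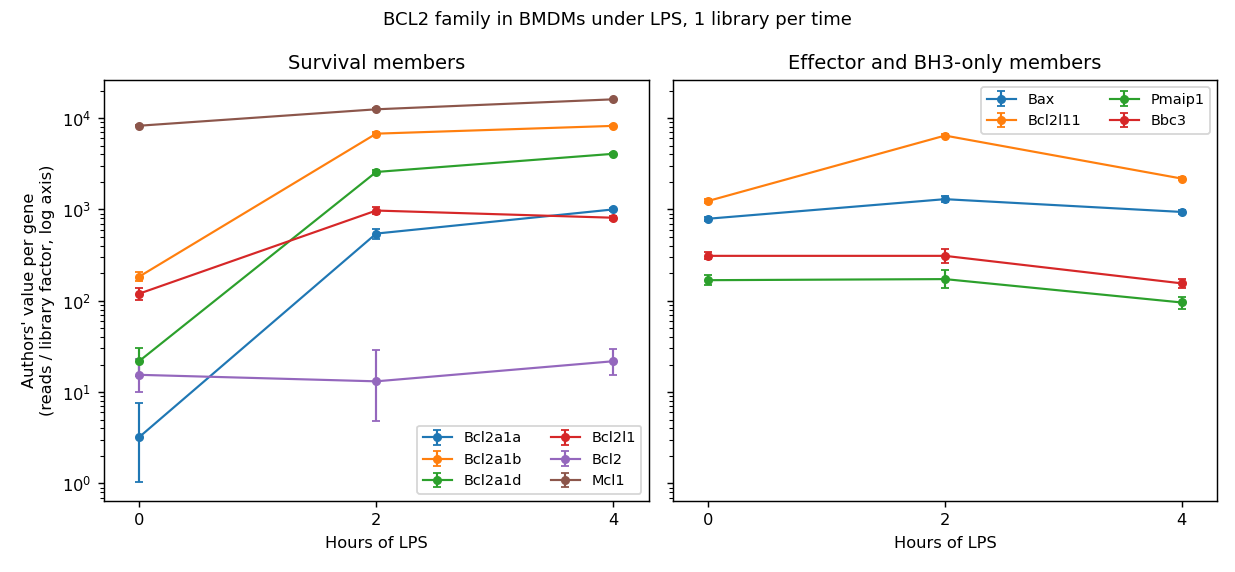
Authors' value (reads divided by a library factor, log axis) of each BCL2 family member against hours of LPS, survival members on the left, effector and BH3-only members on the right; points are single libraries and bars are 95% exact counting intervals. The 3 Bcl2a1 genes lie 44.7-fold to 311-fold higher at 4 h than at 0 h, while Bcl2l11 peaks at 2 h and Pmaip1 and Bbc3 are lowest at 4 h.

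The 3 Bcl2a1 transcripts are 98.2% to 99.1% identical, and of all 150-base stretches, the length of a read, 28.2% in Bcl2a1a, 14.2% in Bcl2a1b and 30.3% in Bcl2a1d also occur in another of these copies. How reads that fit several copies were counted is not given in the sources used here, so values of single copies are uncertain and their sum was followed too. Together the copies had 325, 4519 and 24431 reads at 0, 2 and 4 h. The sum was 47.2-fold higher at 2 h (42.2 to 52.99) and 63.5-fold higher at 4 h (56.9 to 71.1). With libraries scaled to equal read totals in place of the authors' factors, it was 29.8-fold and 35.9-fold higher. The single copies were then 23.2-fold and 25.2-fold higher for Bcl2a1b, 74.3-fold and 105-fold for Bcl2a1d and 107-fold and 176-fold for Bcl2a1a. On the authors' scale, summed macrophage markers stood at 329530, 360721 and 326899 and summed neutrophil markers at 6038, 14325 and 16118 in the same 3 libraries. In CPM, which sets equal read totals, these sums were 32863, 22743 and 18419 and 602, 903 and 908, so the course of the macrophage sum depended on the scaling. Of the neutrophil markers Csf3r alone stood at 1277, 4337 and 9064 on the authors' scale, and the other 10 together stood at 4761, 9988 and 7054. Of 11 neutrophil markers, 6 were at least 2-fold higher and 1 lower at 2 h than at 0 h, and 1 higher and 2 lower at 4 h, against 20.5% and 24.7% of all genes at 2 h and 22.2% and 23.6% at 4 h. The defining marker Ly6g had 4, 1 and 2 reads and Cxcr2 24, 3 and 14 reads, and the part of other cells in these ratios was not tested.

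The make-up of the Bcl2a1 reads also differed between the 3 libraries. In untreated cells Bcl2a1b gave 88.0% of them (95% exact interval 84.0 to 91.3), against 68.4% after 2 h of LPS (67.1 to 69.8) and 61.9% after 4 h (61.3 to 62.5). Bcl2a1d gave 10.5%, 26.0% and 30.6%. The smallest share was that of Bcl2a1a, at 1.54% (0.501 to 3.55), 5.51% (4.86 to 6.22) and 7.53% (7.20 to 7.87) in the same order. As shares within a library, these values do not depend on how libraries were scaled. They do rest on how reads that fit several copies were counted, which is not known, and with 1 library per time point the intervals cover counting error only and test no difference between times.

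**Figure D2:**
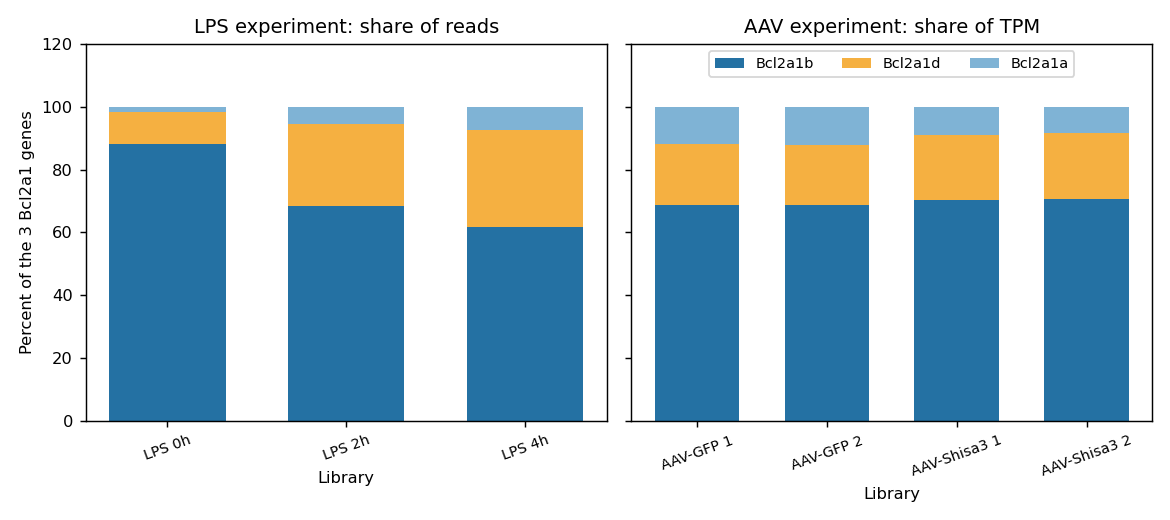
Stacked bars of the percent of Bcl2a1 signal given by each copy, as a share of reads in the 3 LPS libraries (left) and as a share of TPM in the 4 AAV samples (right). Bcl2a1b holds 88.0% of the reads at 0 h and 61.9% at 4 h of LPS, and in the AAV samples it holds 68.7% to 70.6% of the TPM.

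Among the other survival members, Bcl2l1 was higher after LPS, Mcl1 was abundant at every time and Bcl2 was barely counted. Bcl2l1 (BCL-XL) had 186, 445 and 1492 reads, or 120, 972 and 811 on the authors' scale. It was 8.12-fold higher at 2 h (6.83 to 9.69) and 6.78-fold higher at 4 h (5.81 to 7.94), or 5.13-fold and 3.83-fold with equal read totals. Unlike the Bcl2a1 genes, it was no higher at 4 h than at 2 h (ratio 0.834, 0.750 to 0.930). Mcl1 had 12827, 5716 and 29538 reads, or 8251, 12482 and 16051 on the authors' scale. Its ratio to 0 h was 1.51 at 2 h (1.47 to 1.56) and 1.95 at 4 h (1.91 to 1.99), but with equal read totals these were 0.956 and 1.10, so its direction at 2 h depended on the scaling. Bcl2 had 24, 6 and 40 reads, and its ratios to 0 h of 0.849 (0.284 to 2.13) and 1.41 (0.828 to 2.44) could not be told from no difference at this depth.

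Of the effector Bax and the BH3-only genes, Bcl2l11 was highest at 2 h, and Pmaip1 and Bbc3 were lowest at 4 h. Bcl2l11 (BIM), which binds all the survival proteins, had 1922, 2947 and 4001 reads, or 1236, 6435 and 2174 on the authors' scale. It was 5.21-fold higher at 2 h (4.91 to 5.52), and its 4 h level was 0.338 times that at 2 h (0.322 to 0.354). With equal read totals the 2 h ratio was 3.29, and the 4 h ratio to 0 h went from 1.76 on the authors' scale to 0.994. The 2 h peak was thus present under both scalings, and a 4 h level above that at 0 h was not. Pmaip1 (NOXA), which binds mainly MCL1 and the Bcl2a1 proteins, had 261, 79 and 176 reads, or 168, 173 and 95.6 on the authors' scale. Its ratio to 0 h was 1.03 at 2 h (0.789 to 1.33) and 0.570 at 4 h (0.468 to 0.692). Bbc3 (PUMA) had 482, 142 and 285 reads, or 310, 310 and 155 on the authors' scale, with ratios of 1.00 (0.823 to 1.21) and 0.500 (0.430 to 0.579). With equal read totals Pmaip1 stood at 0.650 and 0.322 and Bbc3 at 0.632 and 0.282 of their 0 h levels, so both were lower at 4 h under each scaling, while at 2 h the difference depended on it. Bax had 1229, 593 and 1726 reads, or 791, 1295 and 938 on the authors' scale. Its ratios to 0 h were 1.64 (1.48 to 1.81) and 1.19 (1.10 to 1.28), and 1.04 and 0.670 with equal read totals, so its direction at 4 h depended on the scaling.

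**Figure D3:**
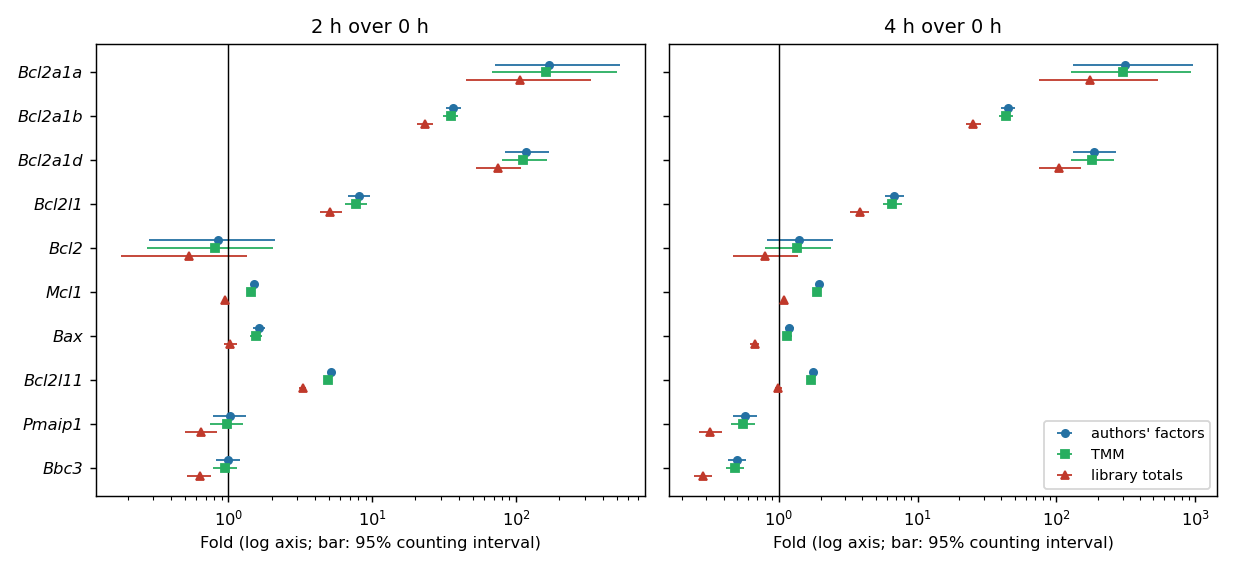
Ratio of each member's level at 2 h (left) and 4 h (right) to that at 0 h, on a log axis, with libraries scaled by the authors' factors, by TMM or to equal read totals; bars are 95% exact counting intervals and the line marks no difference. The Bcl2a1 genes and Bcl2l1 lie right of the line under all 3 scalings at both times. The points of Mcl1, Pmaip1 and Bbc3 at 2 h and of Bcl2, Bax and Bcl2l11 at 4 h lie on both sides of it, some very close to it.

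A gene was called where its log2(value + 1) differed by at least 1, close to a 2-fold change for all but low genes. At 2 h, 5 of the 10 members were called higher than at 0 h (Bcl2a1a, Bcl2a1b, Bcl2a1d, Bcl2l1 and Bcl2l11), against 20.5% of the 17854 genes compared, and 0 were called lower, against 24.7%. At 4 h, 4 of the 10 were called higher (the same genes without Bcl2l11), against 22.2% of genes, and 0 lower, against 23.6%. Those called at both times include the 3 Bcl2a1 genes, near-identical copies whose reads may be split between them. They therefore do not count as 3 separate results, and their sum was higher by 5.55 at 2 h and 5.98 at 4 h on the log2 scale. Mcl1 at 0.96 and Bbc3 at -0.997 on the log2 scale were just short of the call at 4 h, the latter at a ratio of 0.4995 without the pseudocount. The count of lower members at 4 h depended on the setting: Bbc3 was called lower with TMM (-1.04), with a pseudocount of 0.1 and with equal read totals (-1.82), the last of which also called Pmaip1 (-1.62). The share of all genes called lower was 24.3%, 25.3% and 44.5% in these 3 settings. Between 2 h and 4 h, 0 members were called higher and Bcl2l11 was called lower, against 17.9% and 15.2% of genes. With equal read totals 3 members were called lower between 2 h and 4 h, Bcl2l11, Pmaip1 and Bbc3, against 17.5% of genes. The median log2 difference of the 10 members was 1.55 at 2 h and 0.89 at 4 h, beside -0.05 and -0.04 over all genes. It counts the Bcl2a1 copies as 3 genes and so does not describe the family as a whole. The members other than these copies ran from -0.22 (Bcl2) to 3.01 (Bcl2l1) at 2 h and from -0.997 (Bbc3) to 2.75 (Bcl2l1) at 4 h. Scaling to equal read totals moved the median of all genes to -0.71 and -0.83, a shift that the ratios with equal read totals share.

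Levels of different genes can be set side by side per length, as CPM per kilobase of exon. In untreated cells Mcl1 led at 241, followed by Bax at 50.0, Bcl2a1b at 22.5, Bcl2l11 at 15.4 and Bbc3 at 14.6. Pmaip1 (6.13), Bcl2l1 (2.60), Bcl2a1d (2.53), Bcl2a1a (0.392) and Bcl2 (0.168) came after them. At 2 h Bcl2a1b stood first at 521, ahead of Mcl1 at 230, Bcl2a1d at 188, Bax at 51.8, Bcl2l11 at 50.5 and Bcl2a1a at 41.9. At 4 h Bcl2a1b was at 567, Bcl2a1d and Mcl1 were both at 265, and Bcl2a1a at 68.8 exceeded Bax at 33.5. Per-length levels take the whole annotated exon length, which is longest for Bcl2 (9157 bases) and Bcl2l11 (8029 bases).

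In the AAV experiment, 9 of the 10 members passed the filter of a mean of at least 1 TPM, and Bcl2 did not. Bcl2a1b and Bcl2a1d rose and Pmaip1 fell with AAV-Shisa3, while the other 6 members tested did not pass. The 2 that rose of 9 tested compare with 2.23% of the 11218 genes tested, and the 1 that fell with 4.10%, or 3 in either direction with 6.33%. The 2 that rose are near-identical copies whose reads may be split between them, so they do not count as separate results. At an unadjusted p under 0.05 in limma, 4 of the 9 members differed (Bcl2a1b, Bcl2a1d, Pmaip1 and Bbc3), against 28.0% of genes. The 2 samples of AAV-Shisa3 lay above both AAV-GFP samples for 4 members and below both for 3, against 18.2% and 41.2% of all genes. Of those 4 members, 3 are the Bcl2a1 copies. The median log2 difference of the 9 members, the copies counted as 3, was 0.06, beside -0.10 over all genes.

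**Figure D4:**
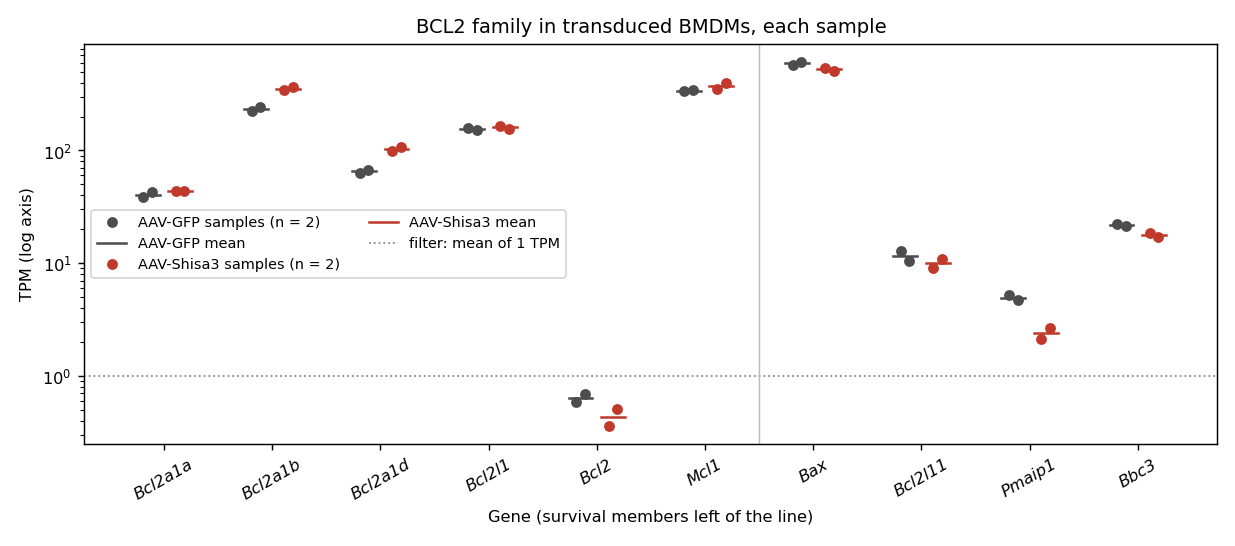
TPM (log axis) of each member in each AAV-GFP (grey) and AAV-Shisa3 (red) sample, with short lines at group means (n = 2) and a dotted line at the filter of 1 TPM. Bcl2a1b moves from 225 and 241 TPM to 342 and 364 TPM, Pmaip1 from 5.20 and 4.70 TPM to 2.12 and 2.65 TPM, and Bcl2 lies under the filter in every sample.

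For Bcl2a1b, AAV-GFP samples held 224.75 and 241.03 TPM and AAV-Shisa3 samples held 341.98 and 364.09 TPM. Both AAV-Shisa3 samples were above both controls, a 1.52-fold ratio of means and a log2 difference of 0.60 ± 0.08 (SE; limma, adjusted p = 0.0216). Bcl2a1d stood at 63.57 and 67.12 TPM in the controls and at 99.52 and 107.80 TPM in the AAV-Shisa3 samples. It rose by a log2 difference of 0.66 ± 0.08 (limma, adjusted p = 0.0216), again with no overlap of the groups. Bcl2a1a differed little, with 38.47 and 42.63 TPM against 44.12 and 43.58 TPM, a log2 difference of 0.11 ± 0.09 (limma, adjusted p = 0.457). The sum of the 3 copies, which depends little on how reads were divided among them, stood at 327 and 351 TPM in the controls and at 486 and 515 TPM in the AAV-Shisa3 samples, and rose by 0.56 ± 0.08 on the log2 scale (limma, adjusted p = 0.0233). These calls were not stable: leaving out any sample raised the adjusted p from limma to between 0.0790 and 0.151 for Bcl2a1b, Bcl2a1d and the sum, with log2 differences of 0.51 to 0.71. Fits without the mean-variance trend or without the filter also lost them.

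Within the Bcl2a1 TPM, the share of Bcl2a1a was 11.8% and 12.2% with AAV-GFP and 9.09% and 8.45% with AAV-Shisa3. The share of Bcl2a1b was 68.8% and 68.7% against 70.4% and 70.6%, and that of Bcl2a1d 19.5% and 19.1% against 20.5% and 20.9%. The groups did not overlap for any copy, and the two-sided exact permutation test gave p = 0.333 for each, the smallest that 2 against 2 samples allow.

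Neutrophil markers moved with the same groups. Their sum was 682 and 672 TPM in the controls, beside 1188 and 787 TPM in the AAV-Shisa3 samples, most of it S100a8 and S100a9. Of the 9 markers tested 8 lay above both controls, against 18.2% of all genes, and Ngp and Camp passed the test, against 2.23%. The defining markers Ly6g and Cxcr2 stayed at 0.10 to 0.29 TPM and 0.14 to 0.24 TPM. Summed macrophage markers overlapped, at 36832 and 34766 TPM against 38346 and 35894 TPM, most of it Lyz2. Of the 10 macrophage markers 3 lay above and 3 below both controls, against 18.2% and 41.2% of all genes. As higher, 2 passed the test, against 2.23% of genes: Cd14 (0.78, limma, adjusted p = 0.0153) and Cx3cr1 (1.05, limma, adjusted p = 0.0484). The part of these markers in the Bcl2a1 difference was not tested.

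Pmaip1 was a low transcript, at 5.20 and 4.70 TPM in the controls and at 2.12 and 2.65 TPM in the AAV-Shisa3 samples. The groups did not overlap, with a ratio of means of 0.482 and a log2 difference of -0.82 ± 0.17 (limma, adjusted p = 0.0481). That call is marginal. Centring each sample on its median gave an adjusted p of 0.0693 in limma, and leaving out any sample gave 0.110 to 0.192, with log2 differences of -0.93 to -0.70. At so low a level the size depended on the pseudocount, with log2 differences of -1.03 at 0.1 and -0.43 at 5, both past the threshold (limma, adjusted p = 0.0472 and 0.0461).

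The other members did not pass the test. Bbc3 was at 22.18 and 21.21 TPM against 18.48 and 17.13 TPM, a log2 difference of -0.27 (95% interval -0.52 to -0.03; limma, adjusted p = 0.152), with no overlap of the groups. Bax was the most abundant member, at 575 and 607 TPM against 539 and 510 TPM, a log2 difference of -0.17 (-0.35 to 0.01; limma, adjusted p = 0.189). Mcl1 was at 335 and 345 TPM against 353 and 396 TPM, a log2 difference of 0.14 (-0.07 to 0.34; limma, adjusted p = 0.324). Bcl2l1 overlapped between groups (159 and 151 TPM against 166 and 157 TPM), and its log2 difference was 0.06 (-0.13 to 0.25; limma, adjusted p = 0.644). Bcl2l11 overlapped too (12.95 and 10.43 TPM against 9.12 and 10.96 TPM), and its log2 difference was -0.20 (-0.58 to 0.18; limma, adjusted p = 0.439). Bcl2, at 0.59 and 0.69 TPM against 0.36 and 0.51 TPM, was not tested. A p that misses the threshold does not show that levels were equal, and of these intervals only that of Bbc3 excluded 0.

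**Figure D5:**
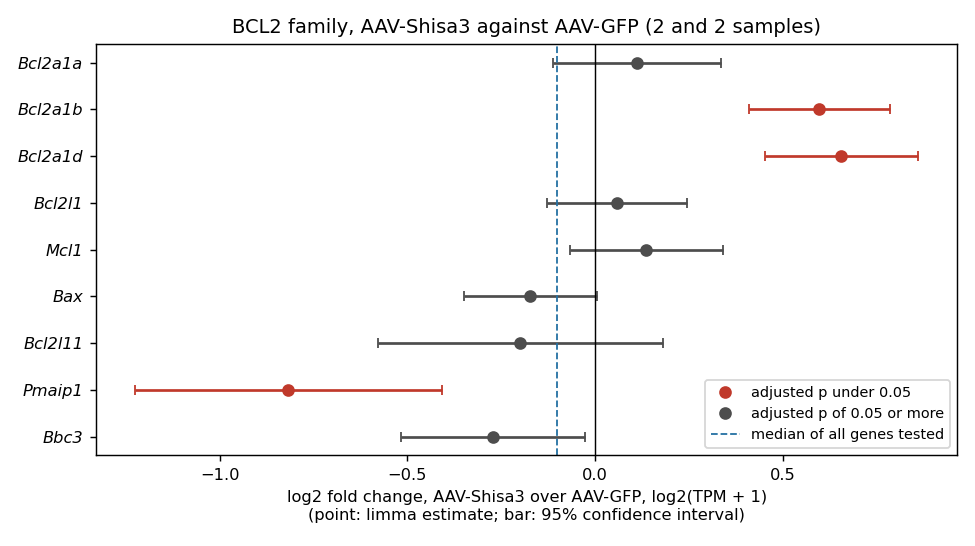
Log2 difference of AAV-Shisa3 over AAV-GFP on the log2(TPM + 1) scale for the 9 members tested, as limma estimates with 95% confidence intervals; red marks an adjusted p under 0.05 and the dashed line the median of all genes tested (-0.10). Bcl2a1b (0.60) and Bcl2a1d (0.66) stand to the right and Pmaip1 (-0.82) to the left, and the intervals of Bcl2a1a, Bcl2l1, Mcl1, Bax and Bcl2l11 cross 0.

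The order of levels was the same in both AAV groups. By mean TPM it ran from Bax (591 with AAV-GFP, 524 with AAV-Shisa3) through Mcl1 (340, 374), Bcl2a1b (233, 353), Bcl2l1 (155, 161), Bcl2a1d (65.3, 104), Bcl2a1a (40.6, 43.9), Bbc3 (21.7, 17.8), Bcl2l11 (11.7, 10.0) and Pmaip1 (4.95, 2.39) down to Bcl2 (0.640, 0.435). The only neighbours whose samples overlapped were Mcl1 and Bcl2a1b with AAV-Shisa3. The LPS and AAV tables were normalized separately, so levels were not compared between them.

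The counts of other pathway genes stand beside shares over all genes of 2.23% rising and 4.10% falling with AAV-Shisa3 (8.21% and 19.8% at an unadjusted p under 0.05), and of 22.2% called higher and 23.6% lower at 4 h of LPS. Of the 16 other BCL2 family genes, 8 were tested, 0 rose and Bnip3l, a mitophagy receptor, fell (log2 difference -0.66; limma, adjusted p = 0.0216). At an unadjusted p under 0.05 in limma, 0 of them were higher and 2 lower. At 4 h of LPS 6 of 13 were called higher and 3 lower, with the largest log2 differences in Bmf (-5.57), Bcl2l14 (2.26) and Bcl2a1c (1.89). Bmf, a BH3-only gene, had 1636, 11 and 39 reads at 0, 2 and 4 h. Of the 6 called higher 4 had at most 11 reads at 4 h, Bcl2l14 (0, 2 and 7 reads) and Bcl2a1c (0, 2 and 5 reads) among them. Bak1, the effector that acts beside Bax, was higher by 1.48 on the log2 scale. Of 13 apoptosome and caspase genes, all tested, 0 rose and Casp9, the initiator caspase, fell (-0.56; limma, adjusted p = 0.0356), with 0 above and 3 below the controls at an unadjusted p under 0.05. At 4 h of LPS 4 of them were called higher, among them Cycs, which encodes cytochrome c (3.15), and 4 lower. Of 8 inhibitor-of-apoptosis genes 0 rose and 0 fell with AAV-Shisa3 in limma, with 3 above and 1 below the controls at an unadjusted p under 0.05, and Birc3 (2.13) and Birc2 (1.42) were higher at 4 h of LPS.

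The p53 list, which holds Bax, Pmaip1 and Bbc3, had 17 of 18 genes tested, of which 0 rose and 5 fell with AAV-Shisa3 in limma (1 above and 9 below the controls at an unadjusted p under 0.05), beside 4.10% of all genes that fell. The largest were Gdf15 (-0.89; limma, adjusted p = 0.0409), Pmaip1 and Phlda3 (-0.73; limma, adjusted p = 0.0350), and the list's median was -0.23 beside -0.10 for all genes. Trp53 itself was at 67.28 and 64.09 TPM against 70.56 and 69.79 TPM. At 4 h of LPS 4 of 17 genes were called higher and 4 lower, shares close to those over all genes, including Cdkn1a (3.36), Fas (3.29) and Trp53inp1 (-4.64). Of 14 tested genes that regulate members at the level of transcription or protein, 0 rose and 3 fell: Dynll2 (-0.64), the stress factor Ddit3 (-0.64) and Atf4 (-0.49). At an unadjusted p under 0.05 in limma, 1 was above and 6 were below the controls. At 4 h of LPS 4 of 16 were called higher and 3 lower, with the largest log2 differences in Pim1 (3.81), Foxo3 (-3.31) and Ier3 (2.22). The 10 NF-κB reference genes were all called higher at 4 h of LPS, led by Tnfaip3 (6.45), Traf1 (5.81) and Nfkbia (4.62), and with AAV-Shisa3 Nfkb1 (0.54) and Nfkbia (0.36) rose while 0 fell in limma (4 above and 3 below the controls at an unadjusted p under 0.05). Under centring on sample medians the split of all calls went from 35.2% higher to 64.1% higher, so the balance of rises and falls depended on it.

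Genes whose pattern was most like that of a member were taken by the smallest distance over 3 log2 differences (LPS 2 h and 4 h against 0 h, AAV-Shisa3 against AAV-GFP) among 10528 genes and 7 samples. For Bcl2a1b these were Mt2 (distance 0.236), Hivep2 (0.388) and Dusp16 (0.396). For Mcl1 they were Eif4a1 (0.0392), 4833439L19Rik (0.0650) and Dhps (0.0728). For Bcl2l11 they were Swap70 (0.150), Gm2541 (0.192) and Gpr132 (0.200), and for Pmaip1 Rab3gap2 (0.176), Tmem198b (0.179) and a gene whose symbol had been turned into a date in the table (0.211). Mt2 had log2 differences of 5.42, 5.47 and 0.56, beside 5.19, 5.47 and 0.60 for Bcl2a1b.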

How the data were processed

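RNA was sequenced from 3 LPS libraries and 4 AAV samples of BMDMs, as 150-base paired-end reads. The submitters' processing notes name the build mm9, while the aligner, the counter and the annotation are not given in the sources used here. For the LPS experiment the deposited signal per gene is a number of reads over a library-specific factor. This was inferred from the values, of which 100% were whole multiples of 1 step within 0.01 reads, and reads were recovered by division. With single libraries, no count test was run on them. For the AAV experiment the deposited values summed to 999778 to 999818 per sample and were read as TPM. The paper does not name the test behind its RNA-seq comparison.

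AAV genes averaging at least 1 TPM were tested with limma (trend) on log2(TPM + 1), with Benjamini-Hochberg adjustment over 11218 genes and a threshold of 0.05. Differences on this scale understate the change of low genes. LPS genes were compared on log2(value + 1) with a mean of at least 1, and ratios of reads were given exact 95% intervals, which cover counting error only; the 2 h library was the shallowest. The members, lists and tests were chosen with earlier results of these data known. Always named were the 10 members and Shisa3; from each other list up to 3 genes with the largest log2 difference past each call were named, beside defining cell markers and the 3 genes nearest to 4 members, and Trp53 and Bak1 were named after their values were seen. Where an LPS symbol had several entries, that with the most reads was used. Positions came from GENCODE M21 and promoter windows from RefSeq (GRCm38.p6), matched by symbol. No sequence is shown for Pmaip1, and proteins were not used here. The limma step was tested on simulated data. Alternatives were other scalings, pseudocounts and filters, no trend, a replicate block and leaving out each AAV sample. R 4.3.3 with limma 3.58.1 and edgeR 4.0.16 (TMM only) were used, besides Python 3.11.15 (scipy 1.17.1, pandas 2.3.3, numpy 2.4.6, matplotlib 3.10.9).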

Additional observations from a re-analysis of the deposited data

How the results depend on the processing

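Counts of genes past the threshold with AAV-Shisa3 (250 higher, 460 lower) depended on the fit. They were 1 and 4 without the trend (811 and 2148 at an unadjusted p under 0.05), 410 and 230 with each sample centred on its median, 0 and 0 without the filter (limma; 1118 and 2411 unadjusted) and 424 and 851 with the replicate block. Leaving out a sample gave 0 to 32 higher and 0 to 10 lower, with 0 and 0 without AAV-GFP 1 or AAV-GFP 2, 20 and 5 without AAV-Shisa3 1 and 32 and 10 without AAV-Shisa3 2, where the lone sample is assumed to vary like the other group. The log2 difference of the Bcl2a1 sum was 0.56 without the trend (limma, adjusted p = 0.0706) and 0.56 without the filter (0.105), and 0.51 to 0.61 with a sample left out (0.0873 to 0.151). Bcl2a1b, Bcl2a1d and Pmaip1 lost their calls without the trend (limma, adjusted p = 0.0667, 0.0598 and 0.0597), without the filter (0.105, 0.105 and 0.174) and with any sample left out, and Pmaip1 also under centring. The 9 tested members kept their direction in all 12 fits. No label says that same-numbered samples were paired. Their deviations from the group means correlated at 0.188, and whether a pairing exists is not known. The replicate block kept the 3 members' calls (limma, adjusted p = 0.0143, 0.0157 and 0.0424), and Shisa3 passed with it (0.0287).

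For LPS, equal read totals gave 2377 higher and 7290 lower genes at 2 h (3668 and 4406 on the authors' scale) and 2304 and 7985 at 4 h (3958 and 4207). Between 2 h and 4 h (3197 and 2710), a pseudocount of 5 gave 1830 and 1551, and a mean of at least 5 gave 2110 higher. The log2 difference of the Bcl2a1 sum was 4.89 at 2 h, 5.16 at 4 h and 0.27 between 2 h and 4 h with equal totals, and 5.87, 6.35 and 0.49 with centring, against 5.55, 5.98 and 0.43. Members' 2-fold calls gained were, with centring, Bax at 2 h (1.02) and Mcl1 (1.33) and Bcl2l11 (1.19) at 4 h, and, with equal totals, Pmaip1 (-1.62) and Bbc3 (-1.82) at 4 h against 0 h and both at 4 h against 2 h (-1.004 and -1.16). Bbc3 was also called at 4 h with TMM (-1.04) and, against 0 h and 2 h, with a pseudocount of 0.1. No member lost a 2-fold call under these settings. The causes were not tested. No read depth is known for the AAV samples, and at 24, 6 and 40 reads Bcl2 was too shallow under LPS for a direction.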
